A study of Mus musculus with 6 samples.

Results

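The miR-34 and miR-449 family was examined in liver RNA of mice given carbon tetrachloride (CCl4), a solvent that injures hepatocytes and produces fibrosis on repeated dosing, and in control livers. Members were taken by name, as every mouse miRNA on the array called miR-34a, b or c or miR-449a, b or c, with either arm of the hairpin. This gave 11 of the 1247 mouse miRNAs on the array. All mice were male C57BL/6, 7 weeks old at the first injection. The 3 arrayed mice of the CCl4 group received 0.6 mL/kg of CCl4 in corn oil into the peritoneum, 2 times a week for 10 weeks. The 3 arrayed control mice received the vehicle, corn oil, at the same volume and on the same schedule. Each liver sample was hybridized to its own 1-color miRNA array, and the labels do not mention pooling of mice.

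miR-34a is a direct transcriptional target of p53, the transcription factor that responds to DNA damage and other stress. It represses genes of cell cycle entry and survival, among them Bcl2, Met, Ccnd1 and Cdk6, and the deacetylase gene Sirt1, so that it is commonly described as acting toward cell cycle arrest, senescence and apoptosis. miR-34b and miR-34c come from a single transcript that p53 also induces, and are known for high levels in testis and in epithelia with motile cilia, such as the airway. The miR-449 miRNAs carry the same seed, the bases that pair with target mRNAs, and are known from the same ciliated tissues.

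The mature sequences show why these miRNAs are treated as a single family. RefSeq (GRCm38.p6) held 9 of the 11 members, without miR-34c-5p and miR-449b. The 5p arms are shown first, with the seed (bases 2 to 8) in capitals.
miR-34a-5p: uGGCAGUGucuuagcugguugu
miR-34b-5p: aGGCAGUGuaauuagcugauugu
miR-449a-5p: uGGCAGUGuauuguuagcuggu
miR-449c-5p: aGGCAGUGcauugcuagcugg
The seed GGCAGUG is common to these 4 miRNAs and to no other of the 1679 mature mouse miRNA names in the RefSeq table. Since miR-34c-5p and miR-449b have no entry there, they were not compared, and the seed is not shown to be confined to these 4. Compared base by base from the 5′ end without gaps, miR-34a-5p was identical to miR-449a-5p at 15 of 22 bases and to miR-34b-5p at 11 of 22. miR-34b-5p has 23 bases and the other 2 miRNAs have 22. In a count without gaps an extra base puts all bases after it out of register. The 2 counts therefore do not rank the members by likeness. The opposite arms of the miR-34 hairpins carry other seeds, again in capitals.
miR-34a-3p: aAUCAGCAaguauacugcccu
miR-34b-3p: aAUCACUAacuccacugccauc
miR-34c-3p: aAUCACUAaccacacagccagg
miR-34b-3p and miR-34c-3p share the seed AUCACUA, while that of miR-34a-3p is AUCAGCA.

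The members come from 3 places in the mouse genome. miR-34a-5p lies at chr4:150068473-150068494 on the plus strand, and its gene was not within the span of another gene of the RefSeq table. miR-34b-5p lies at chr9:51103610-51103632 and miR-34c-3p at chr9:51103044-51103065, both on the minus strand. Their genes are neighbors within the spans of Hoatz and Btg4. miR-449a-5p (chr13:113037549-113037570) and miR-449c-5p (chr13:113036008-113036028) are on the plus strand, and the 3 Mir449 genes lie within the span of Cdc20b.

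Signals are given as the total signal of a miRNA, the background-subtracted brightness that the scanner software summed over its probes, in arbitrary intensity units and without normalization between arrays. The software flags a miRNA as detected or not and sets the total of an undetected miRNA to 0.1. Between 186 and 193 miRNAs were detected in the control livers and between 227 and 334 in the CCl4 livers, the most in CCl4 replicate 3. This array stood apart from the other 5: miR-122-5p, the predominant hepatocyte miRNA, had a total signal of 2158 there and between 13110 and 18345 elsewhere. Results that rest on it are therefore also given without it. The CCl4 arrays occupied the first row of the single slide and the corn oil arrays the second, so slide position and treatment cannot be told apart. The number of arrays limits the precision of all values.

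Of the 11 members, miR-34a-5p was the only one detected on all 6 arrays. miR-34b-5p, miR-34c-5p and miR-34c-3p were detected on CCl4 replicate 3 alone. The other 7 members, which were miR-34a-3p, miR-34b-3p and all 5 miRNAs of the miR-449 group, were not detected on any array. The family thus had 4 members detected on at least 1 array and 1 in the corn oil livers.

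**Figure D1:**
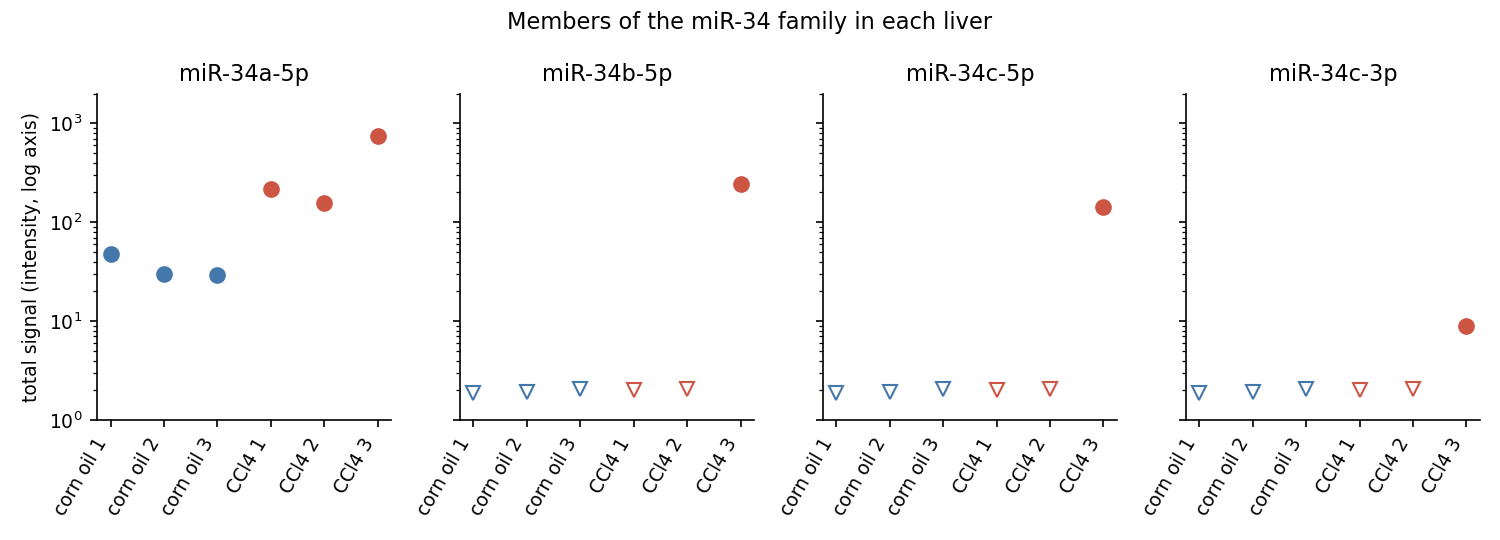
Total signal (intensity, log axis) of the 4 detected members in each liver, corn oil in blue and CCl4 in red. Filled circles are detected signals, and open triangles mark arrays where the miRNA was not detected, drawn at the lowest detected signal of that array. miR-34a-5p was higher on all 3 CCl4 arrays than on any corn oil array, and the others were seen on CCl4 replicate 3 alone.

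miR-34a-5p (mmu-miR-34a-5p) was upregulated in the CCl4-treated livers. Its total signal was 47.9, 29.9 and 29.3 in corn oil replicates 1, 2 and 3. In CCl4 replicates 1, 2 and 3 it was 219, 158 and 752. The lowest CCl4 liver was above the highest corn oil liver, so that the groups did not overlap, and CCl4 replicate 3 was the highest of all. At least 97.5% of the 40 spots of this miRNA were well above background on every array. For the test, log2 total signals of the 166 miRNAs that every array detected were quantile normalized and compared with limma. The normalized log2 signal of miR-34a-5p was 5.85 ± 0.47 in control livers (SD, n = 3) and 7.56 ± 0.39 in CCl4-treated livers (SD, n = 3). The log2 change was 1.71 (standard error 0.32, 95% confidence interval 0.90 to 2.52, limma adjusted p = 0.026), or 3.28-fold with an interval of 1.86 to 5.75. The median change of all 166 miRNAs was -0.14, and 7 miRNAs had a larger rise.

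A miRNA was called when it changed more than 2-fold with an adjusted p (Benjamini-Hochberg) below 0.05. Under this rule 7.23% of the tested miRNAs were called higher in the CCl4 group, miR-34a-5p among them. After quantile normalization, groups without overlap and with CCl4 above were seen for 14.5% of the miRNAs, miR-34a-5p among them. The share was not counted for signals before normalization. The exact permutation test for miR-34a-5p alone gave a two-sided p of 0.1, the smallest that 3 livers against 3 allow. Without CCl4 replicate 3 the log2 change was 1.49 and the call was kept (limma adjusted p = 0.025). The call was lost without corn oil replicate 2 (log2 change 1.56, adjusted p = 0.13), corn oil replicate 3 (1.55, adjusted p = 0.11) or CCl4 replicate 1 (1.81, adjusted p = 0.068).

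**Figure D2:**
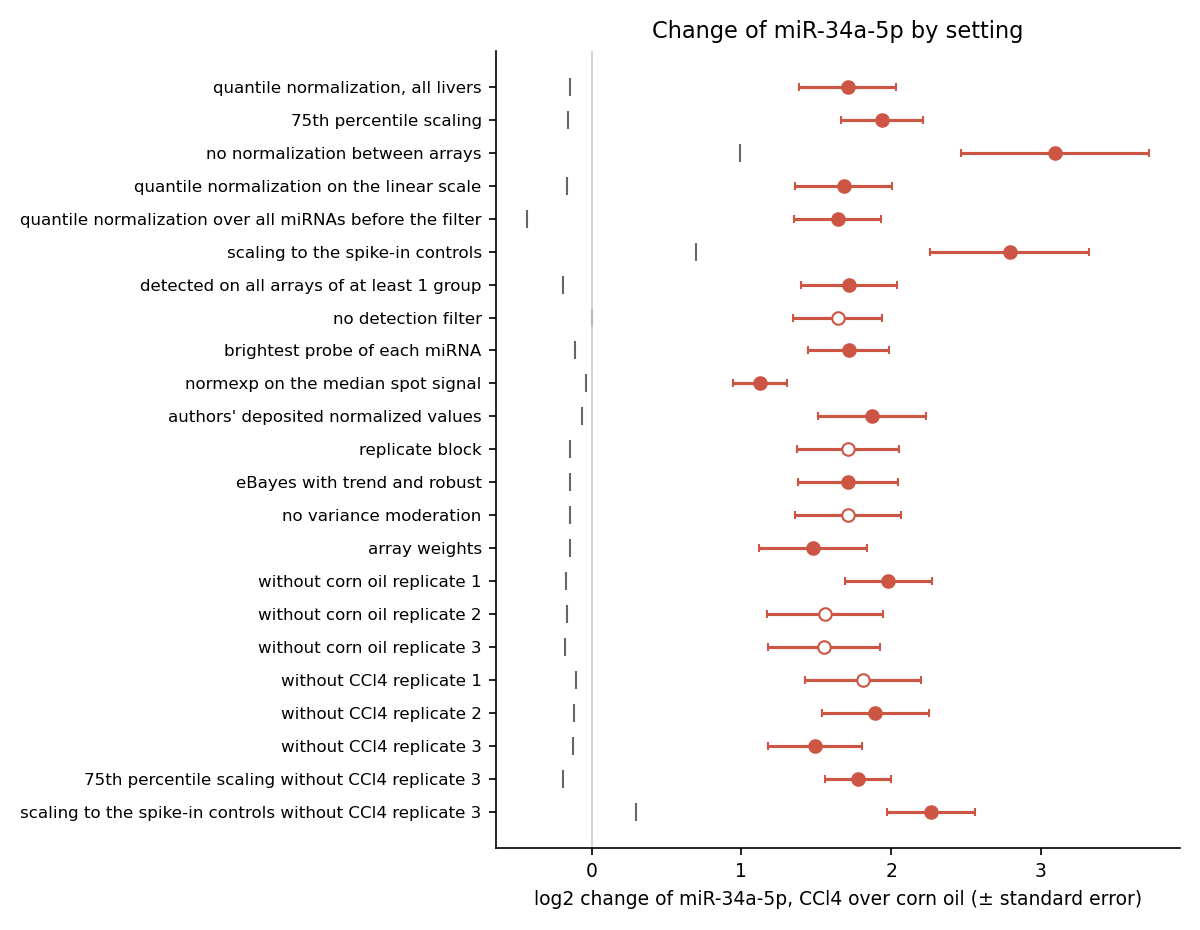
Log2 change of miR-34a-5p, CCl4 over corn oil, with its standard error, under each setting. Filled circles passed the adjusted p and the fold threshold, open circles did not, and the gray ticks mark the median change of all miRNAs tested under that setting. All changes lay above 0, between 1.13 and 3.09.

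The rise did not depend on which of its probes was read. The array carries 2 probes for miR-34a-5p with 20 spots each. The brighter probe had signals of 33.8, 21.5 and 20.6 in corn oil replicates 1 to 3 and 155, 111 and 532 in CCl4 replicates 1 to 3. The dimmer probe read 14.1, 8.40 and 8.70 with corn oil and 63.1, 46.6 and 220 with CCl4. The ratio between them stayed between 2.37 and 2.56 over the 6 livers. After scaling each array to its 75th percentile, the log2 changes of the 2 probes were 1.93 and 1.94.

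**Figure D3:**
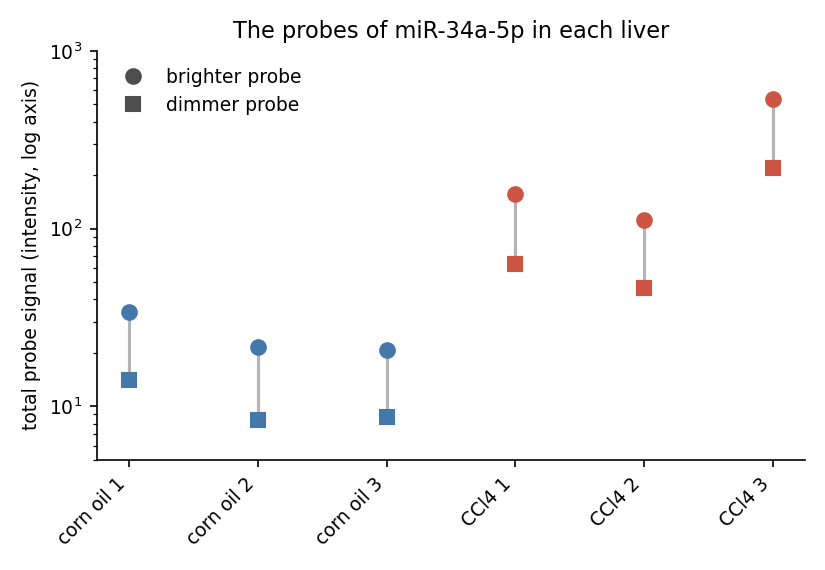
Total signal (intensity, log axis) of the 2 probes of miR-34a-5p in each liver, corn oil in blue and CCl4 in red, with a gray line joining the probes of 1 array. The vertical distance between the probes was nearly constant, with ratios of 2.37 to 2.56.

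CCl4 replicate 3 was bright for many miRNAs, miR-34a-5p among them. Before normalization, miR-34a-5p on this array was higher than the mean of the other CCl4 arrays by 2.02 on the log2 scale, while the median of the 166 miRNAs was higher by 1.36 and miR-122-5p was at -2.73. After quantile normalization miR-34a-5p was 8.01 in this liver, 7.42 and 7.26 in CCl4 replicates 1 and 2, and 5.57 to 6.39 in the controls. The order of the CCl4 livers and of the groups was kept, while the order of corn oil replicates 2 and 3, which lay close together, changed. Without any normalization the change of miR-34a-5p was 3.09, and with scaling to the spike-in controls 2.79. The median of all 166 miRNAs was then 0.99 and 0.69. The change of miR-34a-5p above that median was 2.10 in both cases, against 1.86 after quantile normalization. Spike-in scaling shifts all miRNAs of an array by the same amount, so the equal values of 2.10 follow from the calculation.

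The livers also differed in the summed signals of miRNAs of other cell types, and their part in the change of miR-34a-5p was not tested. These sums are not normalized, and the arrays differed in brightness. The 75th percentile of the signals of the 166 miRNAs was 152 to 163 with corn oil. It was 278, 221 and 723 in CCl4 replicates 1 to 3. Part of a higher sum, above all in CCl4 replicate 3, can therefore be brightness of the array. In whole liver RNA, fewer cells of a type and less RNA per cell cannot be told apart. The summed signal of 5 leukocyte miRNAs (miR-142-3p, miR-142-5p, miR-150-5p, miR-155-5p and miR-223-3p) was 63.8 to 74.7 in control livers, where 2 or 3 of them were detected, and 319 to 445 in CCl4 livers, where 4 or 5 were detected. The sum of 6 mesenchymal miRNAs (the miR-199 arms, miR-214-3p, miR-143-3p and miR-145a-5p) was 67.2 to 109 in control livers, with 4 or 5 detected, and 255 to 1236 in CCl4 livers, with 5 or 6 detected. The sum of 5 hepatocyte miRNAs was 18947 to 20847 in the corn oil group. It was 14955 and 17730 in CCl4 replicates 1 and 2 and 2750 in CCl4 replicate 3, where miR-122-3p was not detected. The sum of 2 red cell miRNAs, miR-451a and miR-144-3p, was 466 to 754 with corn oil and 730, 315 and 2135 with CCl4, so that these groups overlapped.

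miR-34b-5p (mmu-miR-34b-5p) had a total signal of 244 on CCl4 replicate 3, with 100% of its spots well above background. Its probes read 93.3 and 151 there. On the other 2 CCl4 arrays the same probes read 1.25 and 2.22, and 0.39 and 1.66, without being detected. On the corn oil arrays they read -0.20 to 0.72. These undetected readings on CCl4 replicates 1 and 2 lay above all corn oil readings of the same probe, but 5% of the probes of undetected miRNAs read above 1.23 and 1.27 on these 2 arrays. Scaled to the 75th percentile of each array and set against the lowest detected signal, miR-34b-5p was at least 26.8-fold higher in CCl4 replicate 3 than in each of the other 5 livers.

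miR-34c-5p (mmu-miR-34c-5p), from the gene next to Mir34b, had a total signal of 142 on CCl4 replicate 3, with 100% of its spots well above background. Its probes read 35.3 and 106 there and between -0.54 and 1.16 on the other 5 arrays. On the same scale it was at least 15.5-fold higher in CCl4 replicate 3 than in each of the other livers. The opposite arm, miR-34c-3p, was detected on this array with a signal of 8.96, which came from 1 of its 2 probes, and 27.5% of its spots were well above background. The bound for miR-34c-3p was under 1-fold, so no fold is given. Since these 3 members were measured in 1 of the 3 CCl4 livers, they were not tested between the groups. They were among 111 of the 1247 miRNAs on the array that were detected on CCl4 replicate 3 alone.

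Marker miRNAs of germ cells, epithelia and endocrine cells were read on the same array. None of 12 germ cell miRNAs, among them miR-741-3p, miR-743a-3p, miR-871-3p, miR-880-3p, miR-465a-5p and miR-471-5p, was detected on any array. Of 6 epithelial miRNAs, 2 were detected on CCl4 replicate 3, with a summed signal of 16.9, against 10.4 to 48.8 in control livers and 139 and 25.1 in CCl4 replicates 1 and 2. miR-200c-3p, miR-141-3p and miR-205-5p were at 0.1 on every array. All 3 endocrine miRNAs, miR-375-3p, miR-7a-5p and miR-7b-5p, were detected on CCl4 replicate 3, with a summed signal of 1952. On each of the other 5 arrays 1 of them, miR-7a-5p, was detected, at 9.65 to 13.5. The relation of these markers to the miR-34b and miR-34c signals was not tested.

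The members that were never detected gave readings around 0. On the corn oil arrays all 24 probes of the members undetected there read between -0.83 and 1.00. On CCl4 replicate 3, 18 probes belonged to undetected members and read between -0.86 and 3.04. The highest were both probes of miR-34b-3p, at 1.84 and 3.04, and a probe of miR-449a-5p, at 2.70, where 5% of all probes of undetected miRNAs on that array read above 2.19. The other probe of miR-449a-5p read 0.47. All 4 probes of miR-449b and all 4 of miR-449c-5p read below 0 on this array. miR-34a-3p, the partner of miR-34a-5p in the hairpin, read at most 1.16 on any array.

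**Figure D4:**
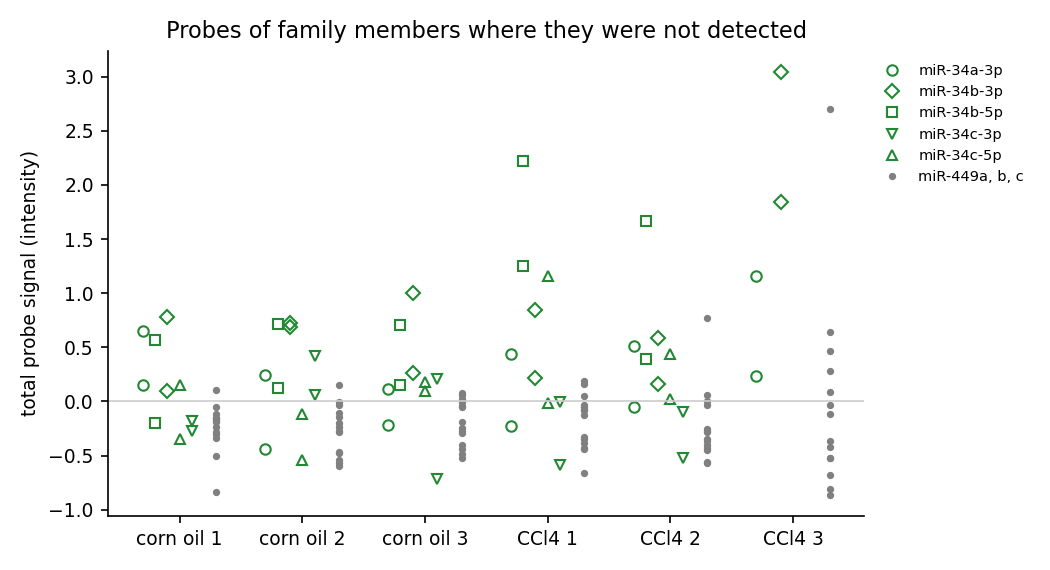
Total signal (intensity, linear axis) of each probe of a family member on the arrays where that member was not detected. Green open symbols are miR-34 members and gray dots the miR-449 members. On the corn oil arrays all probes read at most 1.00, and on CCl4 replicate 3 the probes of miR-34b-3p and a probe of miR-449a-5p read higher.

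To set miR-34a beside other miRNAs of the p53 response, a list of 14 miRNAs that p53 is known to induce, or to help process from their precursors, was described. It holds miR-34a-5p, miR-34b-5p and miR-34c-5p. Of the 14, 8 were detected on all arrays and tested, 3 were detected on some arrays, and miR-215-5p, miR-200c-3p and miR-141-3p on none. In the limma fit 1 of the 8, miR-34a-5p, was called higher and 0 were called lower. Of all tested miRNAs 7.23% were called higher and 4.82% lower. At an unadjusted p under 0.05 the counts were 1 higher and 3 lower, where 10.8% and 18.1% of all tested miRNAs were higher and lower by that rule. The median log2 change was -0.48 for the 8 and -0.14 for all 166 miRNAs. For 6 of the 8 the CCl4 values lay below all corn oil values after quantile normalization, where this held for 24.7% of all miRNAs.

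miR-143-3p, which is known from mesenchymal and smooth muscle cells, had signals of 15.9, 14.4 and 17.5 with corn oil and 49.5, 26.7 and 184 with CCl4, with a normalized log2 change of 0.68 (limma adjusted p = 0.18). Without CCl4 replicate 3 this change was 0.41, and it was 1.97 without normalization and 1.67 with spike-in scaling. Its clustered partner miR-145a-5p was detected on CCl4 replicates 1 and 3, at 10.8 and 46.8, and on no corn oil array. miR-192-5p and miR-194-5p, which are abundant in hepatocytes, had log2 changes of -1.98 and -1.97, with SDs of 2.50 and 2.27 in the CCl4 group. Signals of miR-192-5p were 1370 to 1473 in control livers and 1004, 1216 and 203 in CCl4 replicates 1 to 3, so that the size of its change rested on CCl4 replicate 3. Without that array the log2 changes were -0.48 and -0.71, and without normalization of all 6 arrays -1.18 and -1.14.

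miR-107-3p, a regulator of metabolic genes, had a log2 change of -0.65 (limma adjusted p = 0.16). miR-15a-5p and miR-16-5p, from a single cluster and known to repress Bcl2 and cyclin genes, had log2 changes of -0.57 and -0.37. The log2 change of miR-22-3p was -0.38. None of these 4 was called. Without normalization between arrays all 4 changes were positive, 0.71, 0.48, 0.77 and 0.21, below the median of all miRNAs. With scaling to the spike-in controls they were 0.41, 0.18, 0.47 and -0.09. Scaling to the 75th percentile gave -0.44, -0.67, -0.39 and -0.95, of which that of miR-22-3p had an adjusted p of 0.045 in the limma fit but was under 2-fold. When CCl4 replicate 3 was left out, miR-22-3p was at -0.23 on the log2 scale. In that fit 5 of the 8 listed miRNAs were lower at an adjusted p under 0.05, all by less than 2-fold, where 33.7% of all tested miRNAs were lower by the same rule. miR-34a-5p was again the only one of the 8 called higher, against 9.64% of all miRNAs.

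**Figure D5:**
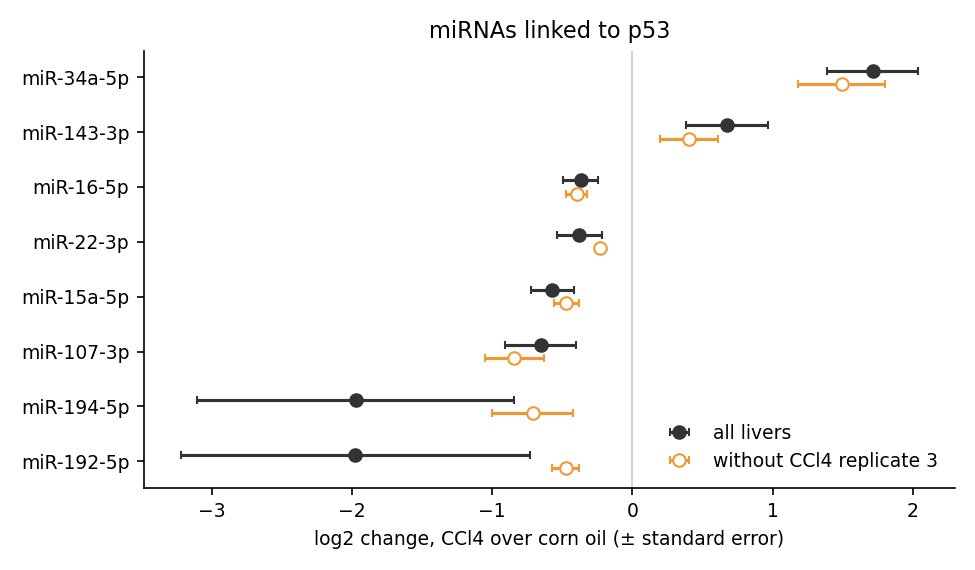
Log2 change after quantile normalization, CCl4 over corn oil, with its standard error, for the 8 p53-linked miRNAs detected on all arrays. Filled black circles use all 6 livers and open orange circles leave out CCl4 replicate 3. miR-34a-5p was at 1.71 and 1.49, and miR-192-5p moved from -1.98 to -0.48.

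The miRNAs whose normalized log2 signals followed miR-34a-5p most closely over the 6 livers were miR-1949 (Pearson r = 0.96), miR-99b-5p (0.94), miR-3082-5p (0.93), miR-199b-5p (0.93) and miR-574-5p (0.92). Over the 5 livers without CCl4 replicate 3 the values were 0.90 to 0.94. These correlations describe 6 arrays that fall into the groups of the study. Before normalization all 5 miRNAs had higher signals on each CCl4 array than on any corn oil array. They were picked for following a miRNA whose groups did not overlap, so the choice largely set this outcome. After quantile normalization 14.5% of all tested miRNAs had groups without overlap and CCl4 above. The total signal of miR-1949 was 6.36, 5.36 and 7.15 with corn oil and 36.8, 23.1 and 96.8 with CCl4. That of miR-574-5p was 14.1, 12.7 and 16.5 with corn oil and 322, 187 and 696 with CCl4. Like miR-34a-5p, both were lowest in replicate 2 among the CCl4 livers and highest in replicate 3. The 75th percentile of the signals had the same order, at 278, 221 and 723 in CCl4 replicates 1 to 3. This order before normalization is thus not particular to these miRNAs. In the control livers these were dimmer, relative to background, than miR-34a-5p: no more than 42.5% of spots for miR-1949, 47.5% for miR-99b-5p, 52.5% for miR-199b-5p, 67.5% for miR-574-5p and 10.0% for miR-3082-5p exceeded the software's limit for a spot well above background.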

How the data were processed

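Scanner output of the 6 arrays (SurePrint mouse miRNA) was deposited as intensity values, which the authors extracted with Agilent Feature Extraction 11.0.1.1, background subtracted, on a linear scale and not normalized between arrays. A second table deposited by the authors holds quantile-normalized intensities of 111 miRNAs. In it the columns of corn oil replicates 1, 2 and 3 follow the scanner arrays of replicates 2, 3 and 1, which leaves group means unchanged. Sequences and their coordinates are those of RefSeq on GRCm38.p6. The array header names another build, and no coordinates of that build are used.

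Following the steps that the paper names, miRNAs with the detection flag on all 6 arrays (166 of 1247) were log2 transformed and then quantile normalized. The authors' normalized table holds 111 miRNAs, so the set tested here is not theirs. limma 3.58.1 in R 4.3.3 (lmFit, eBayes) compared the groups without covariates, with Benjamini-Hochberg adjustment over the 166. The fit was tested on simulated data. Plots were drawn with matplotlib 3.10.9, and the permutation test used scipy 1.17.1 (Python 3.11.15). The spike-in scaling used the mean of the labeling and hybridization spike-in metrics. Bounds used the higher of a miRNA's summed positive probe signals and the lowest detected signal of the array, each divided by the array's 75th percentile.

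The members, the p53 and marker lists and the tests were chosen with earlier results of these data known. The text names all members, the p53 list, the 5 miRNAs most correlated with miR-34a-5p, and markers. Of the markers, miR-486-5p was not matched on the array.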

Additional observations from a re-analysis of the deposited data

Results flagged for a closer look

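In data left out of the comparison by the detection filter, 3 members of the family gave a signal on CCl4 replicate 3 that no corn oil array showed. The total signal was 244 for miR-34b-5p, 142 for miR-34c-5p and 8.96 for miR-34c-3p. No other array detected any of them. Of the 1247 miRNAs, 111 were detected on CCl4 replicate 3 alone, and of the 11 family members 3 were. Detection on this array alone was thus not particular to the family. Of the 111, 49 had over 50% of their spots well above background, miR-34b-5p and miR-34c-5p among them. By total signal miR-34b-5p, miR-34c-5p and miR-34c-3p ranked 9, 17 and 70 among the 111. That array also stood apart in miR-122-5p, at 2158 against at least 13110 on every other array. The miR-34c-3p signal was weak: its probes read 8.96 and 1.66, and 27.5% of its spots exceeded the software's limit. Its lower bound on the fold over the other livers was 0.98, which cannot decide whether there was a rise.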

How the results depend on the processing

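The log2 change of miR-34a-5p was above 0 in all 22 alternatives and kept its call in 16 of them. It was no longer called without a detection filter (1.64, limma adjusted p = 0.28, with 1247 miRNAs tested), with the replicate number as a block (1.71, adjusted p = 0.090) and without variance moderation (1.71, adjusted p = 0.062). Leaving out each array in turn gave changes of 1.49 to 1.98, and the call was kept in 3 of 6 fits. The cause was not tested. Livers of the same number are not shown to be paired. Their deviations from the group means correlated at -0.18, 0.11 and 0.03, but 3 livers per group cannot settle this. With the block the count of called miRNAs fell from 20 to 6. A block leaves less information to estimate the spread, whether or not livers are paired. Without normalization, with spike-in scaling and with normexp on the median spot signal the change was 3.09, 2.79 and 1.13, and it was called each time. In the authors' deposited values, which cover 111 miRNAs and not 166, it was 1.87 (limma adjusted p = 0.033 over the 111). The count of detected family members was 3 where over 50% of the spots had to be well above background, and 1 to 4 when each array was left out, 1 without CCl4 replicate 3. Chosen after seeing the data were normexp on the median spot signal and the fits at the 75th percentile (change 1.78) and with spike-in scaling (2.26) without CCl4 replicate 3. Normexp on the mean spot signal was not run, since the median was used in its place. Signals near background limit what can be said of the other members.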
